A study of Sus scrofa with 9 samples.

Results

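The bile acid genes described here are 10 genes chosen by symbol, namely CYP7A1, CYP8B1, CYP27A1, CYP7B1 and BAAT for synthesis, ABCB11, ABCB4 and SLC10A1 for transport, and the nuclear receptors NR1H4 and NR0B2. A row under the symbol was found for 8 of the 10 among the 25918 genes in the table, and all 8 passed the filter on low values that left 12584 genes for testing. CYP7B1 and BAAT had no row under their symbols and were not analysed here under those names. The data are liver RNA-seq libraries from 9 Wujin pigs, a Chinese native breed, with 3 pigs in each of a low-iron, a control and a high-iron group. The diets carried 0, 100 and 200 mg/kg of added iron, given as iron glycinate on a shared basal diet that itself contained iron. The comparison asks what a low or a high iron supply does to liver gene expression. Pigs entered the trial at 35 days of age, were adapted for 5 days and then received their diets for 30 days before slaughter. They were housed singly and both sexes were used, but the labels do not give the sex of each library. Libraries are named below by their group and the animal number in their label (2, 3 and 7 for low-iron, 4, 5 and 6 for control, 2, 7 and 8 for high-iron). The same number in different groups is a different pig.

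Bile acids are made from cholesterol in hepatocytes. The classic route starts with the 7-alpha-hydroxylation of cholesterol by CYP7A1, its rate-limiting step, and CYP8B1 adds the 12-alpha-hydroxyl group that turns the products towards cholic acid. The alternative route starts with CYP27A1 in mitochondria and continues with CYP7B1, and BAAT joins the finished acids to glycine or taurine. ABCB11 (the bile salt export pump) and ABCB4 (the phosphatidylcholine flippase) act at the canalicular membrane, while SLC10A1 (NTCP) takes bile acids back up from portal blood. Bile acids bind NR1H4 (FXR), which induces NR0B2 (SHP), a repressor of CYP7A1 and CYP8B1 transcription, and NR1H4 also activates ABCB11. Pig bile is known for hyocholic acid, formed by CYP4A21.

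None of the 8 measured genes passed the thresholds in any of the 3 comparisons (the expression at least 2-fold apart, with limma's unadjusted p under 0.05). Of all genes tested, 0.882% passed them for low-iron against control, 1.57% for high-iron against control and 1.54% for high-iron against low-iron, so 0 of 8 genes is near the background in each comparison. At an unadjusted p under 0.05 alone the count was also 0 of 8, against 3.68%, 5.59% and 7.15% of all genes tested, and at an adjusted p under 0.05 it was 0 of 8 against 0%, 0.00795% and 0%. The enzymes CYP7A1 and CYP8B1 had wide spreads between pigs of the same group, whereas NR1H4, SLC10A1, ABCB11 and CYP27A1 varied less, with a highest library at most 2.52 times the lowest. Groups without overlap were found for 0 of 8, 0 of 8 and 1 of 8 genes in the 3 comparisons, against 8.34%, 10.9% and 13.2% of all genes tested, and groups next to each other in the order of their means overlapped for all 8 genes. The libraries were poly(A)-selected bulk liver RNA, in which fewer cells of a type and less RNA per cell cannot be told apart.

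Values are FPKM (fragments per kilobase of transcript, scaled to library size), which are per length and so allow levels to be set side by side between genes. By mean FPKM over the 9 libraries, CYP27A1 was the highest at 355, followed by SLC10A1 at 127, ABCB11 at 66.9 and CYP7A1 at 38.4. NR1H4 followed at 32.3, CYP8B1 at 20.3, ABCB4 at 19.3 and NR0B2 at 13.3. Fold changes below are differences of mean log2(FPKM + 0.1), which understate the change of low genes. The table gives no read counts, and the read totals that the study gives per library were not used here, so no depth is given for single values. The sum of FPKM per library ranged from 416922 to 456420.

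**Figure D1:**
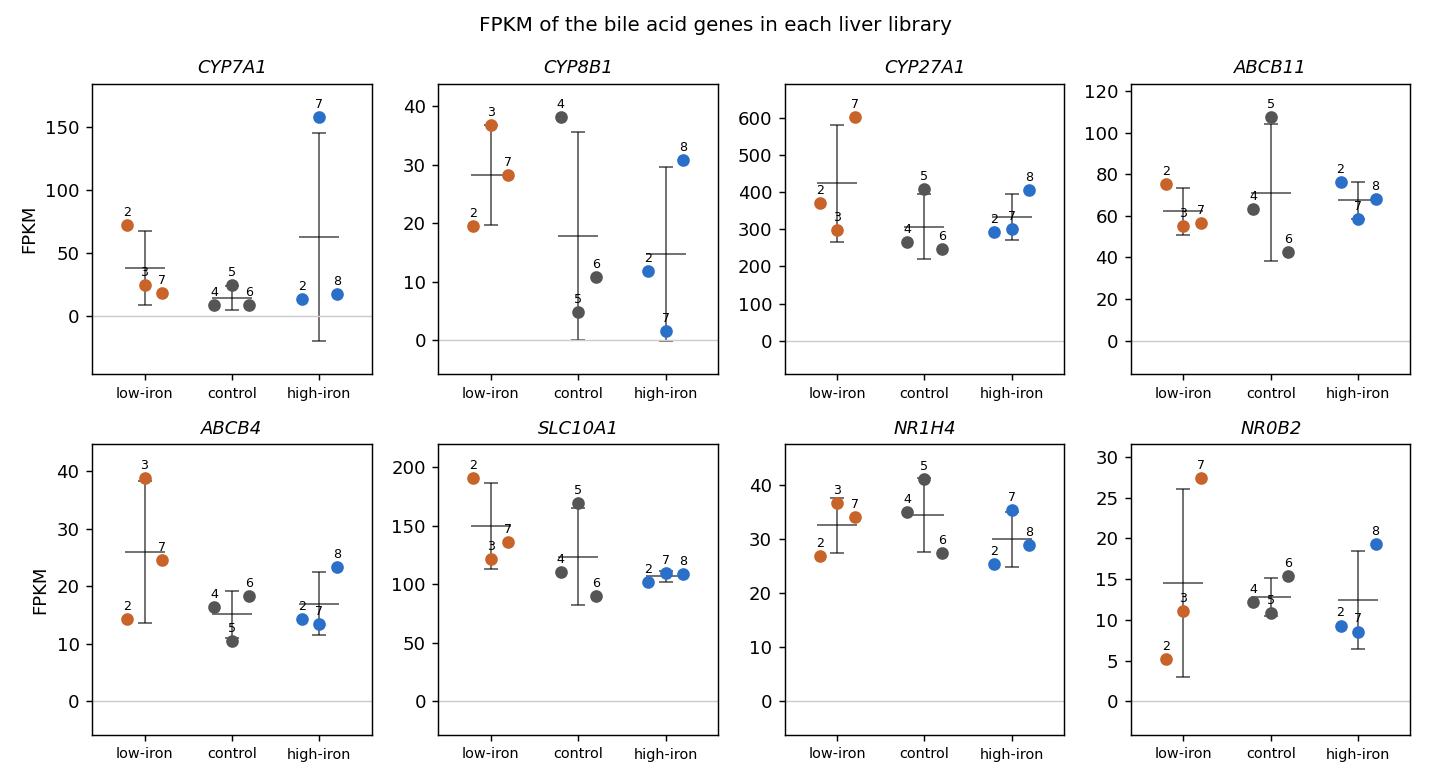
FPKM of the 8 measured bile acid genes (vertical axes, 1 scale per gene) in each liver library, by diet group. Points are libraries with their animal number, horizontal lines are group means and bars are the SD over 3 libraries. CYP7A1 reached 158 FPKM in high-iron library 7, and CYP8B1 had its lowest value of 1.65 FPKM in the same library.

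CYP7A1 (chromosome 4, 74343101 to 74372628, plus strand, Sscrofa11.1) measured 72.2, 24.3 and 18.4 FPKM in low-iron libraries 2, 3 and 7. The control libraries 4, 5 and 6 had 8.67, 24.9 and 8.42 FPKM, and the high-iron libraries 2, 7 and 8 had 13.1, 158 and 17.3 FPKM. High-iron library 7 and low-iron library 2 stood above all others, the remaining 7 libraries lay between 8.42 and 24.9 FPKM, and the groups overlapped in every comparison. The group means were 38.3 ± 29.5 FPKM (SD, n = 3) for low-iron, 14.0 ± 9.42 FPKM (SD, n = 3) for control and 62.9 ± 82.6 FPKM (SD, n = 3) for high-iron. The highest library was 18.8 times the lowest. The log2 fold change was 1.38 for low-iron against control, with an SE of 0.86, a 95% interval of -0.53 to 3.28 and a limma adjusted p of 1.00 (exact permutation p = 0.3, two-sided). For high-iron against control it was 1.43, with an interval of -0.48 to 3.34 and a limma adjusted p of 0.932 (exact permutation p = 0.3). High-iron and low-iron differed by 0.05, with an interval of -1.86 to 1.96. With 3 against 3 libraries the exact test cannot go below p = 0.1.

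The CYP7A1 comparisons turned on single libraries. Without high-iron library 7 the log2 fold change was 0.30 for high-iron against control and -1.08 for high-iron against low-iron. In that fit low-iron against control, still 1.38, passed the thresholds, with an SE of 0.53 in place of 0.86. The same value passed when only the low-iron and control groups were fitted. Without high-iron library 2, high-iron against control was 2.09 and passed as well. Without low-iron library 2, low-iron against control was 0.79 and did not pass.

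CYP8B1 lies on chromosome 13 (26330233 to 26331738, minus strand). It measured 19.6, 36.8 and 28.3 FPKM in the low-iron libraries, 38.1, 4.78 and 10.8 FPKM in the control libraries and 11.9, 1.65 and 30.9 FPKM in the high-iron libraries. All low-iron libraries were at or above 19.6 FPKM, while control and high-iron each held libraries both above and below that level, so no groups were separate. The means were 28.2 ± 8.58, 17.9 ± 17.8 and 14.8 ± 14.8 FPKM (SD, n = 3 each) in the same order. The log2 fold change was 1.11 for low-iron against control (SE 0.95, interval -0.98 to 3.20) and -0.55 for high-iron against control (interval -2.64 to 1.54). High-iron against low-iron gave -1.66, with an interval of -3.75 to 0.43 and a limma adjusted p of 0.765 (exact permutation p = 0.3). Without high-iron library 8 this difference was -2.58 and passed the thresholds, and without high-iron library 7 it was -0.51. High-iron against control turned to 0.60 without high-iron library 7 and to 0.25 without control library 4.

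**Figure D2:**
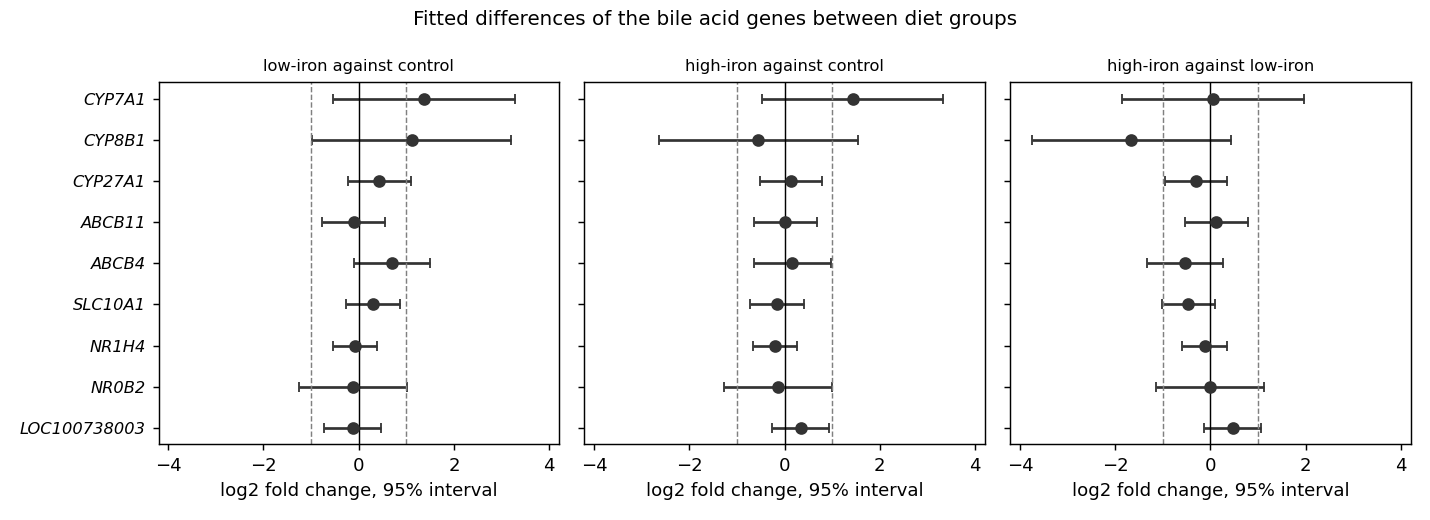
Log2 fold changes (horizontal axis) with 95% intervals from the limma fit for the 8 bile acid genes and LOC100738003, in 3 comparisons. Points are estimates, bars are intervals and dashed lines mark a fold change of 2 either way. All intervals include 0, and those of CYP7A1 and CYP8B1 are the widest.

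CYP27A1 (chromosome 15, 120809886 to 120852196, plus strand) was the most abundant of the 8 genes in every library. Its values were 370, 299 and 603 FPKM in low-iron, 266, 408 and 248 FPKM in control and 292, 301 and 405 FPKM in high-iron libraries. Only low-iron library 7 exceeded the highest control library, and the groups overlapped. The means were 424 ± 159, 307 ± 87.4 and 333 ± 62.8 FPKM (SD, n = 3 each). The log2 fold changes were 0.44 for low-iron against control (interval -0.22 to 1.09), 0.14 for high-iron against control (interval -0.52 to 0.79) and -0.30 for high-iron against low-iron (interval -0.95 to 0.35).

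CYP7B1 and BAAT were looked for by annotated product, which does not settle that the genes found are those. LOC100738003 (chromosome 4, 69615953 to 69793131, plus strand) is annotated as 25-hydroxycholesterol 7-alpha-hydroxylase-like, the activity of CYP7B1. It measured 44.0, 35.04 and 31.9 FPKM in low-iron, 43.0, 57.0 and 26.1 FPKM in control and 51.3, 44.7 and 56.6 FPKM in high-iron libraries. All high-iron libraries were above all low-iron libraries, as was the case for 8.11% of all genes tested. The log2 fold change was 0.47, with an interval of -0.13 to 1.06 and a limma adjusted p of 0.769 (exact permutation p = 0.1, the smallest possible). The difference was -0.13 for low-iron against control and 0.34 for high-iron against control. LOC102158534 (chromosome 1, 243065668 to 243084816, minus strand), annotated as bile acid-CoA:amino acid N-acyltransferase-like, had 0.030 and 0.044 FPKM in low-iron libraries 2 and 3 and was listed at 0 in the other 7, below the filter.

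ABCB11 (chromosome 15, 75402296 to 75487092, minus strand) measured 75.1, 54.9 and 56.4 FPKM in low-iron, 63.4, 107 and 42.7 FPKM in control and 76.1, 58.3 and 68.1 FPKM in high-iron libraries. The control group held both the highest and the lowest library and spanned the other 2 groups. The means were 62.1 ± 11.2, 71.2 ± 33.0 and 67.5 ± 8.90 FPKM (SD, n = 3 each). The log2 fold changes were -0.11, 0.02 and 0.13 for low-iron against control, high-iron against control and high-iron against low-iron, with intervals of -0.77 to 0.55, -0.64 to 0.68 and -0.53 to 0.79. The second of these turned to -0.11 under median-of-ratios scaling.

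ABCB4 (chromosome 9, 93171371 to 93262124, plus strand) measured 14.3, 38.9 and 24.6 FPKM in low-iron, 16.5, 10.5 and 18.4 FPKM in control and 14.3, 13.5 and 23.3 FPKM in high-iron libraries. Low-iron libraries 3 and 7 were above all control libraries, and low-iron library 2 lay among them. The means were 25.9 ± 12.3, 15.1 ± 4.08 and 17.0 ± 5.48 FPKM (SD, n = 3 each). Low-iron against control gave a log2 fold change of 0.70, with an interval of -0.11 to 1.5005 and a limma adjusted p of 1.00 (exact permutation p = 0.3). It was 1.06 without low-iron library 2, which passed the thresholds, and 0.35 without low-iron library 3. High-iron differed from control by 0.16 (interval -0.64 to 0.97) and from low-iron by -0.53 (interval -1.34 to 0.27).

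SLC10A1 (chromosome 7, 93400037 to 93421989, minus strand) measured 191, 122 and 137 FPKM in low-iron, 111, 170 and 89.9 FPKM in control and 102, 110 and 109 FPKM in high-iron libraries. Every high-iron library was below every low-iron library, and the control libraries covered the range of the high-iron ones. It was the only gene of the 8 with separate groups in any comparison, where 5.13% of all genes tested were lower in high-iron than in low-iron without overlap. The means were 150 ± 36.3, 123 ± 41.5 and 107 ± 4.46 FPKM (SD, n = 3 each). High-iron against low-iron gave a log2 fold change of -0.46, with an interval of -1.02 to 0.10 and a limma adjusted p of 0.758 (exact permutation p = 0.1). It was 0.30 for low-iron against control (interval -0.26 to 0.86) and -0.16 for high-iron against control (interval -0.72 to 0.40).

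NR1H4, the bile acid receptor (chromosome 5, 83607222 to 83732668, minus strand), was the steadiest of the 8 genes. Its values were 26.8, 36.5 and 34.1 FPKM in low-iron, 34.98, 41.0 and 27.4 FPKM in control and 25.4, 35.3 and 28.9 FPKM in high-iron libraries. The highest library was 1.61 times the lowest and the groups overlapped throughout, with means of 32.5 ± 5.04, 34.5 ± 6.80 and 29.9 ± 5.05 FPKM (SD, n = 3 each). The log2 fold changes of -0.08, -0.20 and -0.12 had intervals of -0.55 to 0.39, -0.67 to 0.27 and -0.59 to 0.35, in the order low-iron against control, high-iron against control and high-iron against low-iron. A fold change of 2 lay outside each of these intervals.

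NR0B2, the small heterodimer partner (chromosome 6, 84225670 to 84228156, plus strand), measured 5.15, 11.06 and 27.4 FPKM in low-iron, 12.2, 10.8 and 15.4 FPKM in control and 9.31, 8.57 and 19.3 FPKM in high-iron libraries. The low-iron group held both the lowest library, number 2, and the highest, number 7. The means were 14.5 ± 11.5, 12.8 ± 2.36 and 12.4 ± 6.01 FPKM (SD, n = 3 each). The log2 fold changes were -0.13 (interval -1.26 to 1.01) for low-iron against control, -0.13 (interval -1.27 to 1.00) for high-iron against control and -0.01 (interval -1.14 to 1.13) for high-iron against low-iron. The last turned to 0.03 on the TPM scale and to 0.00056 after quantile normalization.

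With diet as a factor of 3 levels, permuting the libraries in all possible assignments gave exact p-values for the F statistic, the smallest of them 0.311 for SLC10A1, followed by 0.329 for ABCB4 and 0.411 for CYP7A1. They were 0.468 for CYP8B1, 0.471 for CYP27A1, 0.636 for NR1H4, 0.911 for ABCB11 and 0.964 for NR0B2. The adjusted p of the limma F test lay between 0.960 (ABCB4) and 0.997 (NR0B2) for the 8 genes. The SD of log2 values within groups was 1.52 for CYP8B1 and 1.38 for CYP7A1, above that of 98.6% and 98.2% of all genes tested. It was 0.80 for NR0B2, 0.54 for ABCB4 and 0.26 for NR1H4, above that of 92.2%, 79.8% and 28.9% of the genes.

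The levels of CYP7A1 and CYP8B1 were also compared pig by pig. In each of the 3 groups the library with the highest CYP7A1 (low-iron 2, control 5 and high-iron 7) had the lowest CYP8B1. The ratio of CYP7A1 to CYP8B1 FPKM was 3.68, 0.661 and 0.650 in the low-iron libraries, 0.227, 5.20 and 0.779 in the control libraries and 1.10, 95.7 and 0.562 in the high-iron libraries. Pearson's r of log2 values over the 9 libraries was -0.58 (exact permutation p = 0.0933, adjusted p = 0.313 over 5 relations), with a Spearman's rho of -0.38 (exact permutation p = 0.312, adjusted p = 0.521). On deviations from the group means r was -0.82 (exact permutation p within groups = 0.0370, adjusted p = 0.185) and rho was -0.77 (exact permutation p = 0.0787, adjusted p = 0.278). Without low-iron library 2 and high-iron library 7, the pair farthest from the median of CYP7A1, r over the other 7 libraries was -0.10. It was -0.04 without high-iron library 7 alone and -0.71 without low-iron library 2 alone, so the relation over all libraries rests on high-iron library 7.

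**Figure D3:**
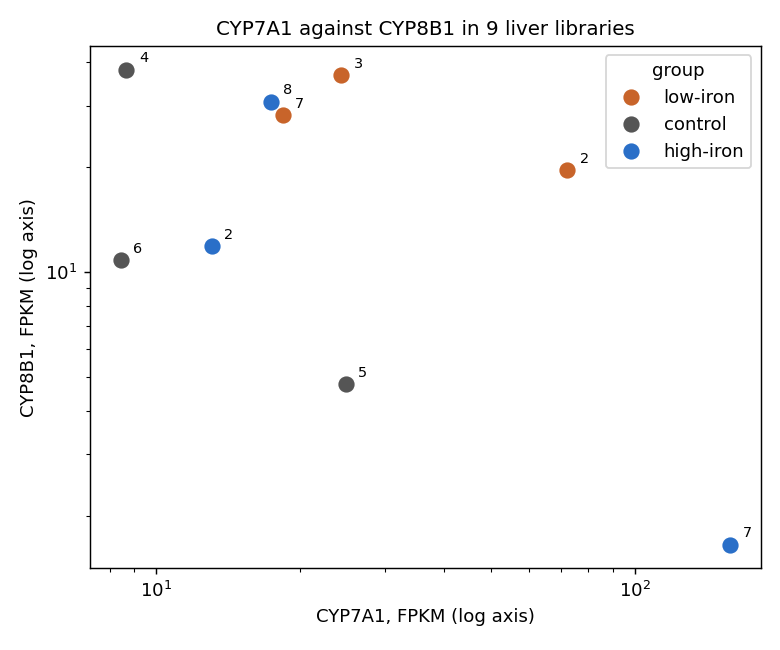
CYP8B1 (vertical) against CYP7A1 (horizontal) in FPKM on log axes, with 1 point per liver library, coloured by diet group and marked with the animal number. High-iron library 7 lies alone at 158 FPKM of CYP7A1 and 1.65 FPKM of CYP8B1.

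None of the 5 relations, all drawn from textbook regulation, had an adjusted p under 0.05, that of CYP7A1 with CYP8B1 included. NR0B2 with CYP7A1 had r = -0.55 (exact permutation p = 0.125, adjusted p = 0.313) and rho = -0.60 (exact permutation p = 0.0968, adjusted p = 0.484), and r was -0.54 without low-iron libraries 2 and 7. NR0B2 with CYP8B1 had r = 0.35 (exact permutation p = 0.356, adjusted p = 0.593) and rho = 0.45 (p = 0.230, adjusted p = 0.521), and r was 0.56 without the same libraries. NR1H4 with NR0B2 had r = 0.16 (exact permutation p = 0.682, adjusted p = 0.682) and rho = 0.067 (p = 0.880, adjusted p = 0.880), which turned to r = -0.48 without low-iron library 2 and high-iron library 2. NR1H4 with ABCB11 had r = 0.23 (exact permutation p = 0.566, adjusted p = 0.682) and rho = -0.10 (p = 0.810, adjusted p = 0.880), and r was 0.67 without the same pair and -0.33 without control library 5.

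The bases before the annotated start of CYP7A1 and NR0B2 are shown because these are the target and the repressor in the relation just given. Both are from the Sscrofa11.1 genome, 250 bases, plus strand, with the ATATAA matches in capitals, at chr4:74342851-74343100 and chr6:84225420-84225669.
CYP7A1: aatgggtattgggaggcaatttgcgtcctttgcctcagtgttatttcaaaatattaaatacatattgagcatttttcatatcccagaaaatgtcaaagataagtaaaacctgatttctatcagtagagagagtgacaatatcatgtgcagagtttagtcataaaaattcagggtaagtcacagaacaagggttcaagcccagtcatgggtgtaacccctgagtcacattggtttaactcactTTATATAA
NR0B2: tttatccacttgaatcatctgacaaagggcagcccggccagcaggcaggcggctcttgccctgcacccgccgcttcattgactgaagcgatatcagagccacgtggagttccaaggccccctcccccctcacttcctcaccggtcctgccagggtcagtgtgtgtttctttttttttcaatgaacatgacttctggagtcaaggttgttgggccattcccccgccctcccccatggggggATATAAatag
Each window, with 50 bases more after the start, was searched on both strands for 4 motifs. These were AGGTCA, the core hexamer of nuclear receptor sites, TCAAGGTCA, its extended form, the inverted repeat of the hexamer spaced by 1 base (IR1), and CAAAGTCCA. None of the 4 was found in either window, and they occur in 14.2%, 0.349%, 0% and 0.373% of 20650 promoters of the same length. ATATAA, searched after the windows were read and found in 8.47% of promoters, starts 6 bases before the annotated start of CYP7A1 and overlaps a match on the other strand. It starts 10 bases before that of NR0B2. A match here is a run of letters, not a site. Only exact letters were searched, and the inverted repeat was in none of the promoters. The lack of a match therefore does not show the lack of a receptor site.

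The genes whose values ran most like those of 4 of the genes over the 9 libraries were ranked by Pearson's r. The ranking covered the genes tested except those named only by a LOC number and new genes without a symbol. For CYP7A1 they were HNRNPA1, an RNA-binding protein (r = 0.93), ACSS2, which makes acetyl-CoA from acetate (0.92), and SQLE, the squalene epoxidase of cholesterol synthesis (0.92). SQLE measured 52.4 FPKM in high-iron library 7 and from 3.15 to 13.7 FPKM in the other 8. For CYP8B1 they were ACKR2, an atypical chemokine receptor (0.96), RELL1 (0.92) and KIAA0232 (0.91). For ABCB11 they were COBLL1 (0.95), VEZT (0.95) and PPARGC1A, a transcriptional coactivator (0.94). For NR0B2 they were OS9, a lectin of the endoplasmic reticulum (0.97), GTPBP3 (0.95) and RPUSD1 (0.95). These are the highest of many correlations over few libraries and are given as a description.

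Among other enzymes of bile acid synthesis, 14 of 16 symbols had a row and all 14 were tested. None of them passed the thresholds in any comparison, and their median log2 fold changes were 0.09, -0.05 and -0.08 for low-iron against control, high-iron against control and high-iron against low-iron. The 8 genes above had medians of 0.37, -0.06 and -0.21, and all genes tested had 0.08, 0.10 and 0.03. AKR1D1, the steroid 5-beta-reductase, was the most abundant, with means of 415 ± 91.6, 421 ± 52.4 and 358 ± 15.9 FPKM (SD, n = 3 each) in low-iron, control and high-iron. SLC27A5, a bile acid CoA ligase, followed with 367 ± 70.4, 349 ± 26.5 and 331 ± 4.07 FPKM (SD, n = 3 each). CYP4A21 had 202 ± 34.6, 166 ± 86.2 and 205 ± 42.5 FPKM and HSD3B7, the dehydrogenase that follows 7-alpha-hydroxylation, 75.5 ± 5.87, 73.5 ± 20.5 and 58.0 ± 15.1 FPKM (SD, n = 3 each). The smallest F-test p in this list belonged to CH25H, the cholesterol 25-hydroxylase, at 0.51 ± 0.15 FPKM in control and 1.09 ± 0.38 FPKM in high-iron (SD, n = 3 each). These 2 groups did not overlap, where 9.14% of all genes tested were higher in high-iron without overlap. The log2 fold change of CH25H was 0.95 (interval -0.04 to 1.93, limma adjusted p = 0.901).

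**Figure D4:**
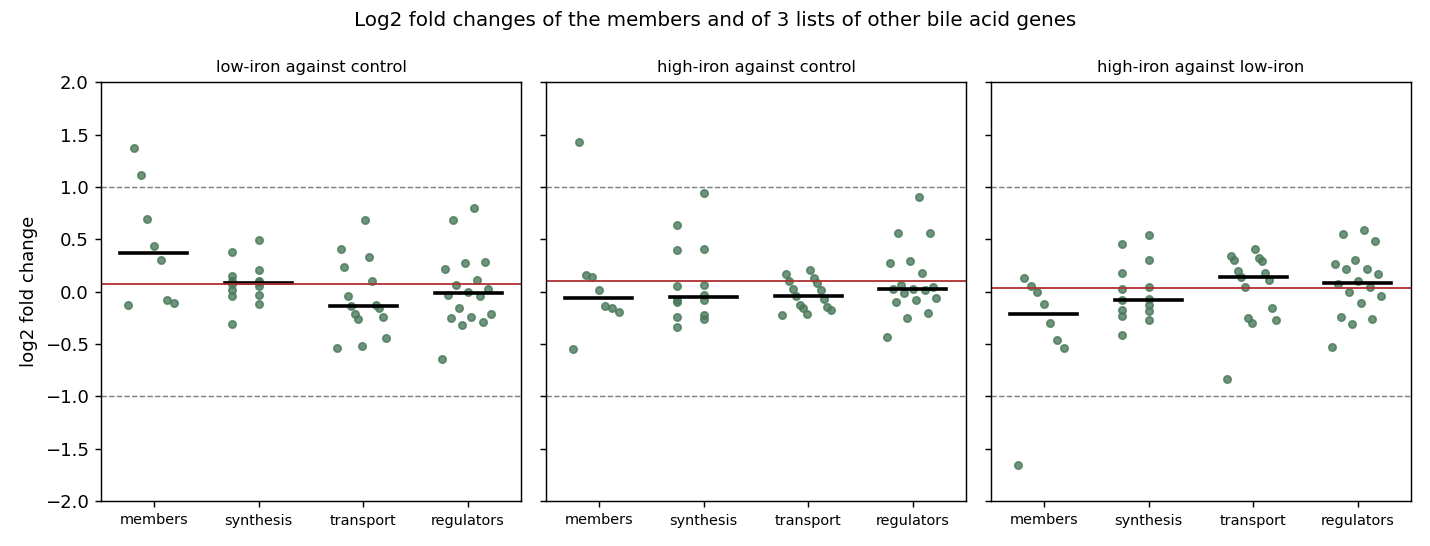
Log2 fold changes (vertical axis) of the bile acid genes described one by one (members) and of 3 lists of other synthesis enzymes, transporters and regulators, in 3 comparisons. Each point is a gene, black bars are list medians, the red line is the median of all genes tested and dashed lines mark a fold change of 2. In low-iron against control the members have a median of 0.37 and all genes tested 0.08.

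Of other transporters, 18 of 19 symbols had a row and 15 were tested, with none past the thresholds. SLC10A2, SLC51A and FABP6 were below the filter. The list medians were -0.13, -0.04 and 0.14 for low-iron against control, high-iron against control and high-iron against low-iron. EPHX1, an epoxide hydrolase, and SLCO1B3, an organic anion uptake carrier, were the most abundant, at 630 ± 159, 485 ± 188 and 515 ± 96.7 FPKM and at 270 ± 64.8, 322 ± 118 and 288 ± 109 FPKM (SD, n = 3 each). The canalicular exporter ABCC2 had 26.0 ± 8.96, 27.9 ± 6.19 and 31.6 ± 8.23 FPKM, the basolateral exporter ABCC3 4.60 ± 1.04, 3.59 ± 0.31 and 3.67 ± 0.53 FPKM, and SLC51B, a subunit of the basolateral OST transporter, 3.39 ± 2.39, 3.47 ± 4.67 and 1.58 ± 0.51 FPKM (SD, n = 3 each). ABCB1, the P-glycoprotein, had the smallest F-test p in this list, with 11.7, 8.95 and 13.6 FPKM in low-iron, 18.1, 14.8 and 13.6 FPKM in control and 14.8, 15.8 and 14.4 FPKM in high-iron libraries. Its log2 fold change for low-iron against control was -0.45 (interval -0.88 to -0.01, limma adjusted p = 1.00), short of a fold change of 2. In that comparison limma's unadjusted p was under 0.05 for 2 of the 15 transporters, ABCB1 among them, against 3.68% of all genes tested. In high-iron against control and high-iron against low-iron it was 0 of 15, against 5.59% and 7.15%.

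Of 20 regulators all had a row and 18 were tested, again with none past the thresholds, and FGF19 and VDR were below the filter. Their medians were -0.02, 0.02 and 0.09 in the same order of comparisons. HNF4A, a nuclear receptor that activates CYP7A1 and CYP8B1, was the most abundant, with 63.5, 96.3 and 102 FPKM in low-iron, 56.7, 92.3 and 67.3 FPKM in control and 58.7, 55.8 and 63.4 FPKM in high-iron libraries. Its high-iron libraries were all below its low-iron libraries, as was the case for 5.13% of all genes tested. The log2 fold change was -0.53 (interval -1.05 to -0.01, limma adjusted p = 0.697). RXRA, the partner of NR1H4, had 51.4 ± 8.61, 49.0 ± 4.65 and 51.3 ± 7.29 FPKM and NR5A2 (LRH-1), the receptor that NR0B2 inhibits, 11.8 ± 2.22, 9.57 ± 1.17 and 9.70 ± 0.45 FPKM (SD, n = 3 each). MAFG, a repressor of CYP8B1, had the smallest F-test p in this list. It measured 1.57, 2.10 and 2.74 FPKM in low-iron, 1.05, 1.21 and 1.22 FPKM in control and 1.49, 1.76 and 2.04 FPKM in high-iron libraries. Both other groups were above the control libraries. Of all genes tested, 6.1% were higher than control without overlap in low-iron and 9.14% in high-iron. For MAFG, low-iron against control gave 0.80 (interval 0.20 to 1.39, limma adjusted p = 1.00), short of a fold change of 2. The FGF19 receptor FGFR4 had 17.5 ± 3.67, 20.6 ± 2.34 and 20.5 ± 8.55 FPKM (SD, n = 3 each). Its co-receptor KLB measured 12.6 FPKM in high-iron library 7 and from 1.30 to 4.61 FPKM in the other 8 libraries.

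The tissue label was checked with markers. The 9 genes under 8 hepatocyte symbols summed to 73735 to 84321 FPKM in low-iron, 77805 to 96267 FPKM in control and 72657 to 87245 FPKM in high-iron libraries, and none was at 0 or passed the thresholds. The 7 bile duct markers summed to 15.2 to 37.5, 12.2 to 36.2 and 30.5 to 44.5 FPKM, most of it SPP1, with a mean of 20.6 FPKM. SPP1 passed the thresholds and was higher in high-iron against low-iron (log2 fold change 1.02), 1 of 7 against 1.54% of all genes tested. In that comparison 6 of the 7 log2 fold changes were above 0 and 1 below, against 53.6% of all genes tested above 0. The 6 Kupffer cell markers summed to 442 to 530, 370 to 496 and 578 to 718 FPKM. Of these, 5 of 6 were higher in every high-iron library than in every control library, as were 9.14% of all genes tested. The unadjusted p was under 0.05 for 5 of 6 in that comparison, against 5.59% of all genes tested, and none reached a fold change of 2. The 6 stellate cell and fibroblast markers summed to 80.3 to 167, 84.3 to 115 and 121 to 234 FPKM. In high-iron against control 2 of 6 passed the thresholds (COL1A1 and RGS5), against 1.57% of all genes tested. In high-iron against low-iron 1 of 6 did (COL1A1, log2 fold change 1.51), against 1.54%. Without overlap, 2 of 6 were higher in high-iron than in control, against 9.14% of all genes tested. The 6 endothelial markers summed to 168 to 239, 167 to 206 and 203 to 244 FPKM. In high-iron against control 1 of 6 passed the thresholds (VWF), against 1.57% of all genes tested. Without overlap, 4 of 6 were higher in high-iron than in control, against 9.14%. Lymphocyte markers summed to 8.46 to 12.9, 9.04 to 17.4 and 13.3 to 27.0 FPKM. Genes of hepatocytes near the central vein, the zone in which CYP7A1 is mainly expressed, summed to 2024 to 3150, 2857 to 3074 and 1885 to 2726 FPKM with none past the thresholds. Most of this sum was CYP2E1, also a hepatocyte marker, with a mean of 2253 FPKM over the 9 libraries. The medians of the 8 log2 fold changes were 0.26 for low-iron against control, 0.12 for high-iron against control and -0.37 for high-iron against low-iron. Without overlap, 2 of 8 were higher in low-iron than in control, against 6.1% of all genes tested. In high-iron against low-iron 2 of 8 were lower without overlap, against 5.13%. In high-iron against control the count without overlap was 0 of 8, against 10.9%. Genes of periportal hepatocytes summed to 3199 to 4112, 3086 to 3902 and 2230 to 2776 FPKM. Of these 8, ARG1 passed the thresholds and was lower in high-iron against both other groups. Of all genes tested, 0.294% did so against control and 0.532% against low-iron. In each of these comparisons 7 of the 8 log2 fold changes were below 0 and 1 above. Of all genes tested, 65% were above 0 against control and 53.6% against low-iron. Without overlap, 3 of 8 were lower in high-iron than in control, against 1.76% of all genes tested. Against low-iron 1 of 8 was lower without overlap, where 5.13% of all genes tested were. Whether these marker differences have any part in the values of the 8 bile acid genes was not tested.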

How the data were processed

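Liver RNA was sequenced from 9 pigs. The authors used Hisat2 for alignment to Sscrofa11.1 and StringTie for transcript assembly, and deposited one table with an FPKM column per library. Rows carry serial numbers, read as gene order in the NCBI release 106 annotation of that build. All 20660 numbered rows fell on protein-coding genes, against 15031 with the order shifted by 1. FPKM holds no counts, so no count model was run. After leaving out genes whose mean FPKM was under 0.5, log2(FPKM + 0.1) of 12584 genes was fitted in R 4.3.3 with limma 3.58.1 (1 fit of 3 groups, empirical Bayes with trend), with Benjamini-Hochberg adjustment over all of them. Thresholds follow the study. The procedure was tested on simulated data. Exact tests used Python 3.11.15 with scipy 1.17.1. Intervals are from limma at 95%. Limma p-values set differences between group means against the spread between single-pig libraries, and exact p-values count rearrangements of the libraries or their pairings.

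The members and lists were chosen with earlier results of these data known. Besides the members, the text names fixed partner genes and, in each pathway list, the 2 genes with the highest mean FPKM, the gene with the smallest F-test p, genes below the filter and any gene past the thresholds. For CYP7A1, CYP8B1, ABCB11 and NR0B2 it also names the 3 genes with the highest Pearson's r over the libraries, leaving out LOC numbers and new genes. ARG1, SPP1, COL1A1, RGS5, VWF and CYP2E1 were picked with their values in view, and the LOC genes were matched by annotated product. Alternatives were pseudocounts of 1 and 0.01, no filter, a minimum mean FPKM of 1, TPM, median-of-ratios scaling, quantile normalization, fits of only the groups compared, a replicate block, and leaving out each library. The reference genome supplied the coordinates and promoter sequences.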

Additional observations from a re-analysis of the deposited data

How the results depend on the processing

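With 3 libraries per group, the intervals of all the 8 bile acid genes but ABCB11 and NR1H4 reach past a fold change of 2 in at least 1 comparison. The count of genes past the thresholds, 111, 197 and 194 for low-iron against control, high-iron against control and high-iron against low-iron, was 34, 74 and 67 with a pseudocount of 1, and 331, 504 and 458 with no filter on low values. None of the 8 bile acid genes passed in these fits. In a fit of only the groups compared, 1 of 8 (CYP7A1) passed for low-iron against control, where 124 of the 12457 genes tested passed. Counts higher and lower in the first group were 75 and 36, 160 and 37, and 127 and 67, against 53 and 47, 96 and 57, and 105 and 80 with median-of-ratios scaling, and 52 and 58, 82 and 59, and 91 and 92 with quantile normalization. Median-of-ratios scaling moved the median of all genes from 0.10 to -0.03 for high-iron against control. NR0B2 in high-iron against low-iron (-0.01) turned to 0.027 on the TPM scale and 0.00056 after quantile normalization, ABCB11 in high-iron against control (0.02) to -0.11 under median-of-ratios scaling, and the correlation of NR1H4 with NR0B2 to -0.48 without the 2 farthest libraries. The cause of these changes was not tested.

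Leaving out each library in turn gave 109 to 211, 190 to 298 and 188 to 332 genes past the thresholds, the highest without control library 5, control library 4 and low-iron library 3, and 0 to 1 of the 8 bile acid genes in each comparison. Log2 fold changes that turned in sign when a library was left out ranged, for low-iron against control, from -0.42 to 0.24 (ABCB11), -0.23 to 0.057 (NR1H4), -0.74 to 0.45 (NR0B2) and -0.43 to 0.13 (LOC100738003). For high-iron against control they ranged from -1.47 to 0.60 (CYP8B1), -0.015 to 0.36 (CYP27A1), -0.30 to 0.37 (ABCB11), -0.087 to 0.32 (ABCB4), -0.36 to 0.10 (SLC10A1) and -0.50 to 0.080 (NR0B2). For high-iron against low-iron they ranged from -1.08 to 0.72 (CYP7A1) and -0.59 to 0.61 (NR0B2). Correlations ranged from -0.13 to 0.27 (NR1H4 with NR0B2) and from -0.33 to 0.42 (NR1H4 with ABCB11).

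The low-iron and high-iron groups share the animal numbers 2 and 7, but these belong to different pigs, so the numbers were not taken to pair libraries. In deviations from the group means, libraries with the same number correlated at 0.02 and 0.02. Those with different numbers correlated at -0.16 to 0.16. Deviations cancel out within each group, so these correlations cannot decide on pairing. The consensus correlation that limma estimated for a shared number was 0.20. With the number as a replicate block, 110, 207 and 228 genes and 0 of the 8 bile acid genes passed the thresholds.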
